A study of Arabidopsis thaliana with 6 samples.

Results

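NAC proteins form one of the largest families of plant transcription factors, named after NAM, ATAF and CUC. They bind DNA through a conserved domain at the N-terminus, whereas the C-terminus differs between members and carries the activating or repressing function. In leaves the family is known above all for the control of senescence and of responses to drought, salinity and abscisic acid (ABA), and its members act for or against the onset of senescence and often on each other's promoters. Some members are made as precursors anchored in a membrane and reach the nucleus after cleavage.

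The family was followed through 32 loci, of which 13 had a probe set that could be named on the Affymetrix ATH1 array, out of 14276 genes with a named probe set. The loci were given as a list, and where several probe sets named a gene the one with the highest mean was used, although each of the 13 had a single one. Each of the 13 probe sets was named only through a list that the study had made of genes responding to H2O2 in a separate experiment, and none through the platform annotation. Of the 14276 genes, 921 were named only through that list. The study reports genes that rose and genes that fell with H2O2 in it, and their direction was not used here. The NAC genes measured here had responded to H2O2, and they do not stand for the family as a whole.

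Of 4 genes of the ATAF group 2 were measured, of 3 dehydration-responsive genes 2, of 5 activators of senescence 3, of 2 repressors of senescence 1, and of 6 membrane-bound factors 4. In the group of ANAC036 and its relatives 1 of 3 genes was measured. No named probe set was found for 19 loci, which were not analysed here. Among them were ANAC102 (AT5G63790) and ATAF2 (AT5G08790) of the ATAF group, ANAC019 (AT1G52890), and the senescence activators ANAC046 (AT3G04060) and ANAC087 (AT5G18270). They also included VNI2 (AT5G13180), a repressor of senescence, the membrane-bound factors ANAC017 (AT1G34190) and ANAC078 (AT5G04410), and ANAC061 (AT3G44350) and ANAC090 (AT5G22380). The 3 listed developmental genes whose transcripts are cut through miR164, NAC1 (AT1G56010), ANAC080 (AT5G07680) and ANAC100 (AT5G61430), were not measured, nor were 6 others, ANAC004 (AT1G02230), ANAC025 (AT1G61110), ANAC041 (AT2G33480), ANAC047 (AT3G04070), ANAC056 (AT3G15510) and ANAC058 (AT3G18400).

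The plants were wild type of the Col-0 ecotype, grown in hydroponic culture and labelled as 28 days old, whereas the study describes this as the age at which the treatment began. Rosettes of control plants in medium without NaCl were compared with rosettes of plants kept for 4 d in 150 mM NaCl, a treatment given to the roots, with 3 arrays in each group. The study describes these as independent biological repeats, and the number of plants per sample is not given in the sources used here. Values are log2 expression after robust multiarray averaging (RMA), and each is given in the order of replicates 1, 2 and 3.

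The labelled tissue was checked against marker genes, few of which had a named probe set. RCA, which encodes the activase of Rubisco, had the high values of 13.62, 13.54 and 13.59 in control samples and 13.20, 13.40 and 13.37 with salt. Of 6 root markers 4 were measured, EXPA7, NRT2.1, IRT1 and CASP1. They lay between 4.12 and 6.23 on all arrays, and none passed the test. Their average on an array was 5.56 to 5.65 in control and 5.43 to 5.57 in salt samples. No flower or apex marker could be checked. GC1, a gene of guard cells, fell from 9.26 ± 0.23 (SD, n = 3) to 6.92 ± 0.48 (SD, n = 3), and in whole rosettes fewer cells of a type and less RNA per cell cannot be told apart. The signal of 25S ribosomal RNA, at 7.16, 7.20 and 7.84 in control samples, was 10.24, 9.05 and 9.48 with salt. The signs of RNA integrity also stood apart between groups, in opposite directions. For actin, the 3′ probe set exceeded the 5′ one by 3.23, 3.11 and 3.23 without salt and by 3.36, 3.47 and 3.66 with it. For GAPDH the same differences were 0.44, 0.45 and 0.39 without salt and 0.37, 0.29 and 0.07 with it. The part of these signals in the results on NAC genes was not tested.

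After 4 d of NaCl, 12 of the 13 measured NAC genes had risen and none had fallen. Over all 14276 genes 11.4% rose and 12.3% fell, by limma with Benjamini-Hochberg adjustment at an adjusted p under 0.05. Among the 921 genes named only through the H2O2 list, from which all 13 come, 36.9% rose. These 921 were not split by their direction with H2O2, so values over them are not those of H2O2-induced genes alone. The largest changes were those of ANAC055, ATAF1, ORE1, ANAC032 and RD26, between 5.17-fold and 13.7-fold. The exception was ANAC036, which was 1.91-fold higher in the mean of the salt samples and did not pass.

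On the criterion of a 2-fold difference in means, 10 of the 13 were higher, against 5.32% of all genes and 28.4% of those named only through the H2O2 list. In all 13, every salt array lay above every control array, which held for 18.9% of all genes and 44.1% of those named only through the H2O2 list. The median log2 fold change of the 13 was 1.77, beside -0.03 for all genes and 0.29 for the genes named only through the H2O2 list. These shares are given as description, because the members were listed with results of these arrays known and were measured only where they had responded to H2O2.

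**Figure D1:**
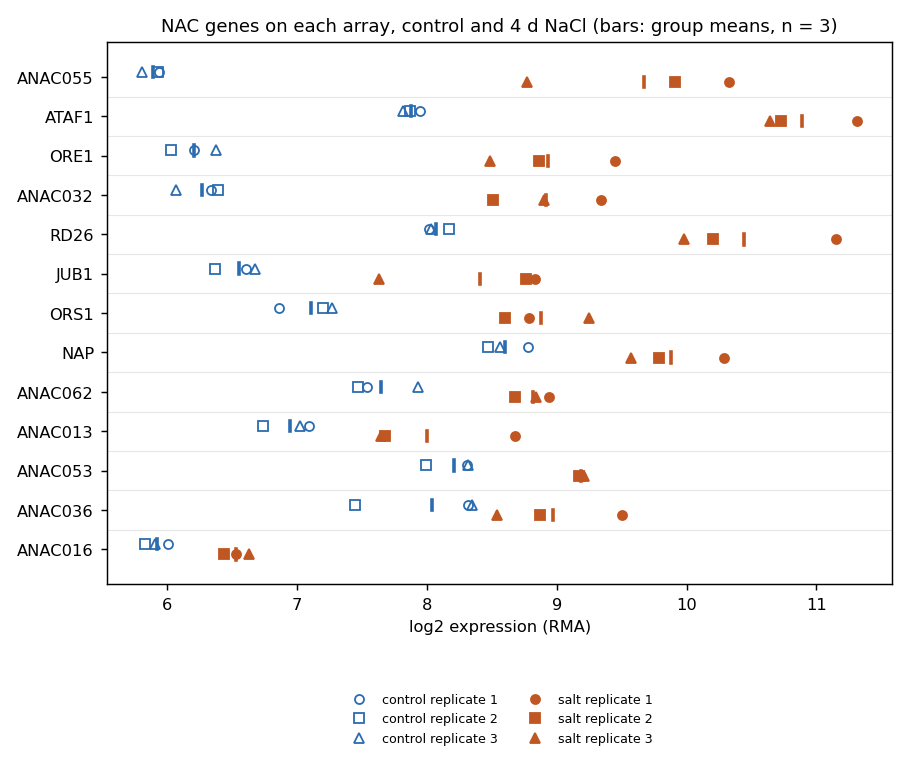
Log2 expression of the 13 measured NAC genes on each of the 6 arrays, ordered by the size of the change; open blue symbols are control samples, filled orange symbols salt samples, the symbol shape is the replicate, and short bars are group means (n = 3). No salt value lies among the control values of the same gene, and the gap is smallest for ANAC036, with 0.19 between its lowest salt and highest control value.

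Members of the dehydration-responsive group rose strongly. ANAC019, ANAC055 and RD26 are close relatives that bind the promoter of the drought-induced gene ERD1 and respond to drought, salinity and ABA. ANAC055 (AT3G15500) read 5.94, 5.93 and 5.81 in control samples and 10.33, 9.91 and 8.77 with salt. Control samples lay within a narrow band, whereas salt replicate 3 was well below the other salt samples. The mean went from 5.89 ± 0.072 (SD, n = 3) to 9.67 ± 0.81 (SD, n = 3), and the change of 3.78 (adjusted p = 0.0011, 95% interval 2.93 to 4.63, SE 0.36) was the 25th largest rise of all 14276 genes.

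RD26 (AT4G27410), also called ANAC072, read 8.02, 8.17 and 8.03 in control samples and 11.15, 10.20 and 9.98 with salt. Here salt replicate 1 stood above the others, and the lowest salt value was 1.81 above the highest control value. The log2 fold change was 2.37 (adjusted p = 0.0023, SE 0.28).

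In the ATAF group both measured genes rose. ATAF1 (AT1G01720), which acts in ABA and sugar responses and activates ORE1, read 7.95, 7.87 and 7.82 in control samples and 11.31, 10.73 and 10.64 with salt. Control samples were tight (SD 0.066, n = 3), and salt samples were wider (SD 0.36, n = 3), with salt replicate 1 the highest. The change of ATAF1, 3.01 (adjusted p = 2.6e-04, SE 0.18), had the lowest adjusted p of the 13 genes. ANAC032 (AT1G77450), which promotes senescence under stress and with age, read 6.34, 6.39 and 6.07 in control samples and 9.34, 8.51 and 8.90 with salt. Salt samples thus lay at least 2.12 above every control sample, and the log2 fold change was 2.65 (adjusted p = 5.9e-04, SE 0.21).

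The 3 measured genes listed as activators of senescence, ORE1, ORS1 and NAP, rose. Genes of other groups, such as ANAC032, ANAC053 and ANAC016, also promote senescence and are described with their own group. ORE1 (AT5G39610), or ANAC092, drives leaf senescence with age, and its transcript is held down in young leaves by miR164. Control samples had 6.21, 6.03 and 6.38, and salt samples 9.45, 8.86 and 8.49. The groups were 2.11 apart at their nearest samples, for a log2 fold change of 2.73 (adjusted p = 7.9e-04, SE 0.24). ORS1 (AT3G29035), or ANAC059, the closest relative of ORE1 and likewise a promoter of senescence, read 6.86, 7.20 and 7.27 in control samples and 8.79, 8.60 and 9.25 with salt. In this gene salt replicate 3 was the highest and not the lowest, as it was for ORE1, and the log2 fold change was 1.77 (adjusted p = 0.0015, SE 0.19).

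NAP (AT1G69490), or ANAC029, links senescence to ABA through the phosphatase gene SAG113 and the ABA synthesis gene AAO3. It read 8.78, 8.47 and 8.56 in control samples and 10.29, 9.79 and 9.57 with salt. Its log2 fold change was 1.28 (adjusted p = 0.0052, SE 0.19), and the groups were 0.79 apart at their nearest samples.

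The measured repressor of senescence rose too. JUB1 (AT2G43000), or ANAC042, is induced by H2O2, lowers the H2O2 level of the cell and prolongs the life of the plant. It read 6.61, 6.37 and 6.68 in control samples and 8.83, 8.76 and 7.63 with salt. Salt replicate 3 was again the low one, and the spread of the salt samples (SD 0.67, n = 3) was wider than that of the controls (SD 0.16, n = 3). The log2 fold change was 1.85 (adjusted p = 0.0079, SE 0.31), and without salt replicate 3 it was 2.24.

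All 4 measured genes for membrane-bound NAC factors rose, with log2 fold changes from 0.62 to 1.17. ANAC062 (AT3G49530), which is released from the membrane under cold, infection and stress of the endoplasmic reticulum, read 7.54, 7.47 and 7.93 in control samples and 8.94, 8.68 and 8.84 with salt. Its log2 fold change was 1.17 (adjusted p = 0.0024, SE 0.14). ANAC053 (AT3G10500), known as NTL4, raises the production of reactive oxygen species in drought and promotes senescence. It read 8.31, 7.99 and 8.32 in control samples and 9.19, 9.17 and 9.21 with salt, the smallest spread of salt samples among the 13 genes (SD 0.020, n = 3). The log2 fold change was 0.98 (adjusted p = 0.0018, SE 0.11), just under 2-fold.

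ANAC016 (AT1G34180), an activator of senescence and of chlorophyll loss, read 6.01, 5.83 and 5.91 in control samples and 6.53, 6.44 and 6.63 with salt. This was the smallest rise of the 12, with a log2 fold change of 0.62 (adjusted p = 0.0052, SE 0.091), yet every salt sample was at least 0.43 above the controls. ANAC013 (AT1G32870), which carries signals from disturbed mitochondria to the nucleus, read 7.09, 6.74 and 7.02 in control samples and 8.68, 7.68 and 7.65 with salt. Salt replicate 1 stood far above the other salt samples. The log2 fold change was 1.05 (adjusted p = 0.034, SE 0.28) and 0.72 without that replicate. It did not pass when any 1 control replicate was left out (adjusted p = 0.083 to 0.12).

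ANAC036 (AT2G17040), whose overexpression gives dwarf plants with small leaves, read 8.32, 7.45 and 8.35 in control samples and 9.50, 8.87 and 8.54 with salt. Control replicate 2 was far below the other controls, and the lowest salt value exceeded the highest control value by only 0.19. The difference of 0.93 (SE 0.32, 95% interval 0.18 to 1.68) had an adjusted p = 0.075 from limma, and with 1 array left out it ranged from 0.64 to 1.15 without passing.

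**Figure D2:**
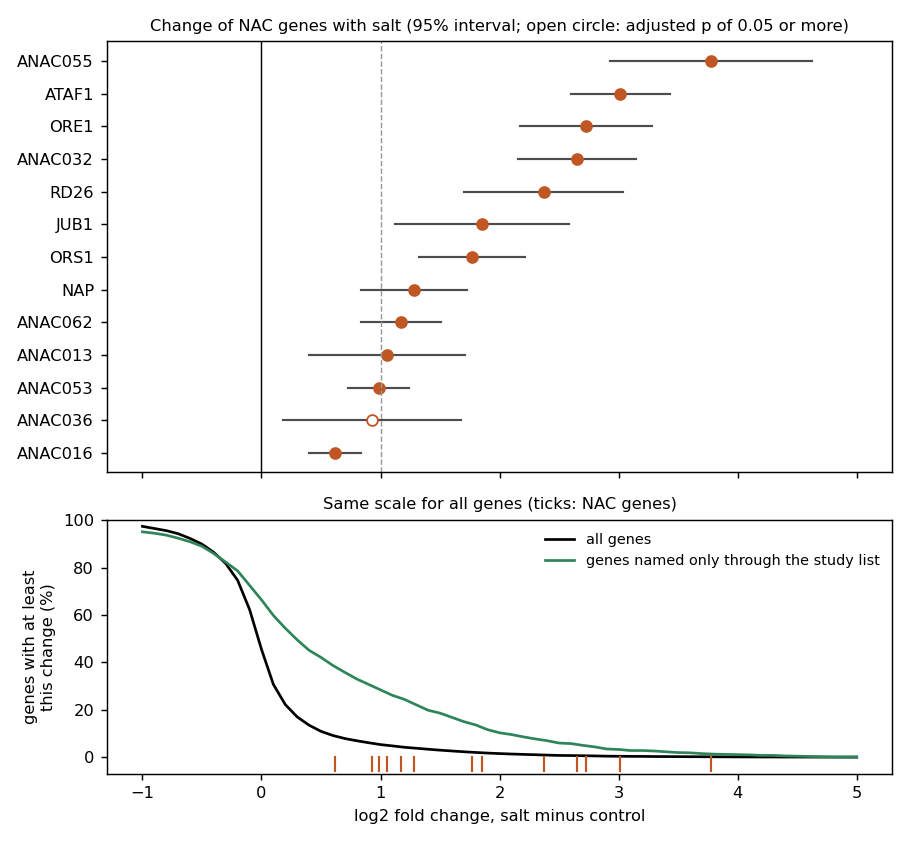
Upper panel, log2 fold change (salt minus control, n = 3 in each group) of each measured NAC gene with its 95% interval from limma, an open circle marking an adjusted p of 0.05 or more and the dashed line a 2-fold change; lower panel, share of all genes and of genes named only through the H2O2 list that changed by at least the value on the axis, with the NAC genes as ticks. All 13 intervals lie above 0, and 3 genes lie below the 2-fold line.

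Salt samples did not respond evenly. Salt replicate 1 had the highest value of the salt samples in 10 of the 13 genes, and ORS1, ANAC053 and ANAC016 were highest in salt replicate 3. Over the 1629 genes that rose, salt replicate 1 was highest in 67.0%. The share was 37.6% over all genes and 58.3% over those named only through the H2O2 list. Salt replicate 1 also had the highest 25S ribosomal RNA signal (10.24). The spread was larger in salt than in control samples for 10 of the 13 genes, and for 74.6% of all genes. Without salt replicate 1, 12 of the 13 genes still rose and 9 were at least 2-fold higher. Leaving out any other array gave 11 or 12 genes that rose.

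**Figure D3:**
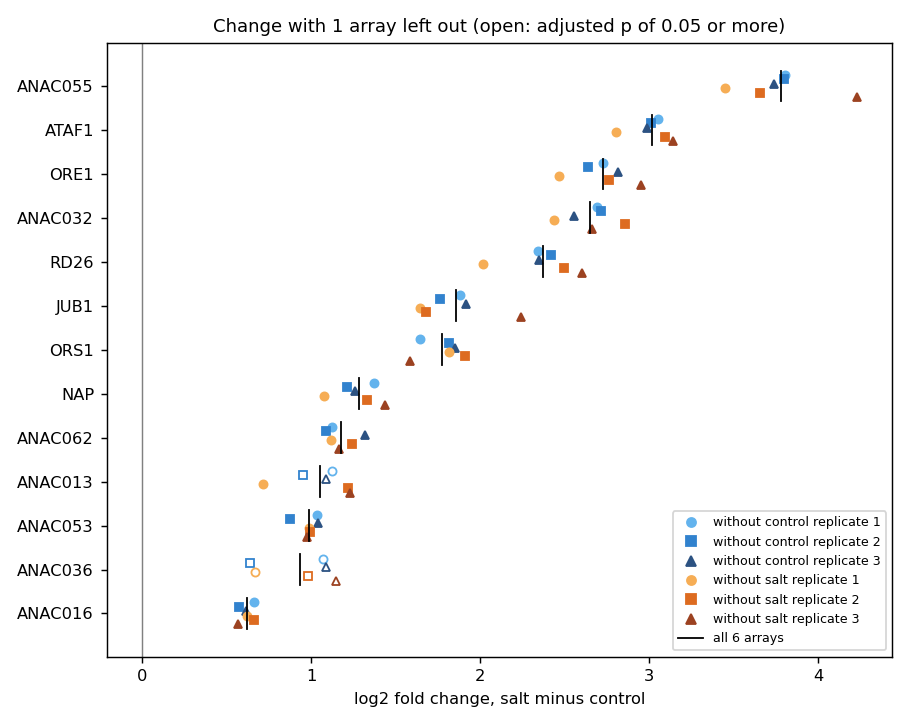
Log2 fold change of each measured NAC gene with 1 of the 6 arrays left out (coloured symbols; open where the adjusted p from limma was 0.05 or more) beside the value from all arrays (black bars). All values are above 0, from 0.57 for ANAC016 to 4.23 for ANAC055, and leaving out a control array opened the symbols of ANAC013, while those of ANAC036 are open in each case.

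Whether relatives changed to unequal extents was examined as the difference between members of a group within each array, over 11 pairs. With 3 arrays in each group, the smallest p of a two-sided exact permutation test is 0.1, and after adjustment over the pairs no p was below 0.275. ANAC055 minus RD26 was -2.08, -2.24 and -2.22 in control samples and -0.82, -0.29 and -1.21 with salt, so that ANAC055 had risen by 1.41 more on the log2 scale than RD26 (exact permutation p = 0.1, adjusted p = 0.275). NAP minus ORE1 was 2.57, 2.44 and 2.18 in control samples and 0.84, 0.93 and 1.08 with salt, a shift of -1.45 with the same p. These were the widest shifts, and groups did not overlap in either pair.

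ORS1 minus ORE1 was 0.65, 1.17 and 0.89 in control samples and -0.66, -0.26 and 0.76 with salt, and the groups overlapped (exact permutation p = 0.2, adjusted p = 0.314). For the ATAF pair, ATAF1 minus ANAC032 was 1.61, 1.48 and 1.75 in control samples and 1.97, 2.22 and 1.74 with salt, which overlapped as well (exact permutation p = 0.2, adjusted p = 0.314). Among the membrane-bound factors, ANAC016 changed by 0.56 less than ANAC062 and by 0.37 less than ANAC053, without overlap in either pair (exact permutation p = 0.1, adjusted p = 0.275 for both). ANAC016 had a weak signal, with means of 5.92 in control and 6.53 in salt samples, and RMA compresses differences of weak probe sets. The part of this in the 2 shifts was not tested. The other pairs of this group overlapped.

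**Figure D4:**
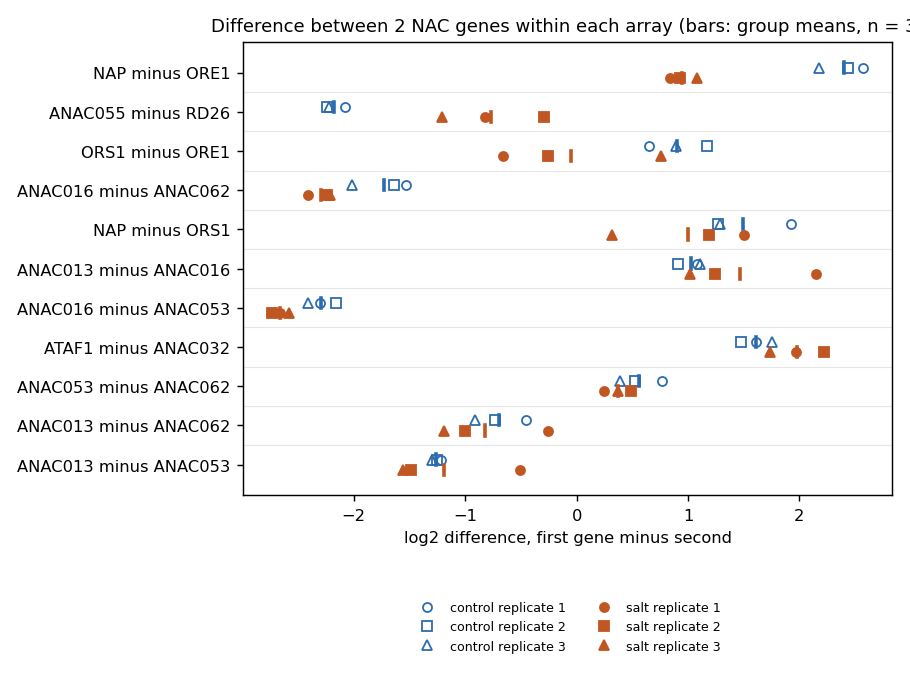
Difference in log2 expression between the members of each of 11 pairs within each array, ordered by the size of the shift with salt; symbols as replicates, blue for control and orange for salt samples, with bars for group means (n = 3). Control and salt samples are apart for NAP minus ORE1, ANAC055 minus RD26, ANAC016 minus ANAC062 and ANAC016 minus ANAC053, and overlap in the other pairs.

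The genes directly beside the 13 NAC genes in the order of the reference annotation were looked at as well. Of 26 such neighbours 8 had a named probe set, 0 of them rose and 1 fell by limma, with the same counts of 0 and 1 at an unadjusted p under 0.05. Over all genes 12.3% fell, so 1 of 8 is near the background. The neighbour that fell was AT5G39600, beside ORE1, with a log2 fold change of -0.42 (adjusted p = 0.032). Among the neighbours without a named probe set are the listed genes ANAC017, beside ANAC016, and ANAC056, beside ANAC055.

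Of the 104 NAC genes found in the reference annotation, 17 could be measured, 4 of them outside the list, and these are named after their values were seen. NAC003 (AT1G02220) rose the most, from 6.35, 5.55 and 5.33 to 9.27, 8.96 and 9.14, a log2 fold change of 3.38 (adjusted p = 5.0e-04, SE 0.25). NAC089 (AT5G22290), which encodes another membrane-bound factor, rose by 0.97 (adjusted p = 0.016, SE 0.20), and its call was lost under 2 of the 6 omissions of an array. NAC001 (AT1G01010), with 0.98 (adjusted p = 0.11, SE 0.39), did not pass. Its salt samples were 7.51, 6.04 and 6.05, and without salt replicate 1 the log2 fold change was 0.50. NAC014 (AT1G33060) was the only NAC gene named by the platform annotation rather than the H2O2 list, and it read 6.57, 6.58 and 6.76 in control and 6.75, 6.70 and 6.73 in salt samples (log2 fold change 0.09, 95% interval -0.11 to 0.29, adjusted p = 0.50 from limma).

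Genes that NAC factors are known or proposed to control were examined next, through a list of 36 genes of which 17 had a named probe set, 10 of these only through the H2O2 list. Of the 17, 14 rose and none fell, where 11.4% of all genes and 36.9% of those named only through the H2O2 list rose. The median log2 fold change of the 17 was 1.34, beside -0.03 and 0.29 in these sets. DREB2A, which encodes a transcription factor of the drought response and is a direct target of JUB1, went from 5.79, 5.79 and 5.98 to 10.45, 9.43 and 8.52. With a log2 fold change of 3.61 (adjusted p = 0.0023, SE 0.43) it had the largest rise of the list. Its salt samples were lowest in replicate 3, as were those of JUB1. This order was not particular to the pair, since ATAF1, RD26, ORE1, ACS2 and AOX1A were also lowest there among the salt samples.

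Among genes placed downstream of ORE1, ACS2, an ethylene synthesis gene, rose from 6.86, 6.60 and 6.63 to 10.31, 10.07 and 8.75, a log2 fold change of 3.01 (SE 0.38). SAG29, a sugar transporter gene of senescing leaves, rose by 2.03 (SE 0.23), SINA1 by 1.07 (SE 0.17) and the ribonuclease gene RNS3 by 0.40 (SE 0.082). In chlorophyll breakdown the stay-green gene SGR1, which ORE1 and other NAC factors activate, went from 8.75, 8.50 and 8.46 to 9.76, 9.80 and 10.18. PPH, which encodes the pheophytinase that acts beside it, went from 9.17, 9.32 and 8.96 to 10.04, 10.03 and 10.02. The rises were 1.34 (SE 0.14) and 0.88 (SE 0.11), and both passed under every omission of an array. RNS3 did not pass without any 1 of the control replicates (adjusted p = 0.054 to 0.073).

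All 3 measured genes of the mitochondrial stress response that ANAC013 and ANAC017 control rose, with fold changes larger than that of ANAC013. AOX1A, the alternative oxidase gene, read 9.88 and 9.64 in control replicates 2 and 3, with a control mean of 9.84 ± 0.18 (SD, n = 3), and 12.34, 11.78 and 11.19 with salt, a log2 fold change of 1.93 (adjusted p = 0.0044, SE 0.27). UPOX, for a mitochondrial protein raised in oxidative stress, rose by 1.67 (adjusted p = 0.0090, SE 0.29). OM66, for a protein of the outer mitochondrial membrane, rose by 1.79 (adjusted p = 0.034, SE 0.47), with 6.92, 6.40 and 7.33 in control and 9.78, 8.21 and 8.04 in salt samples. As for ANAC013, salt replicate 1 stood apart, and the call of OM66 was lost when any 1 control replicate was left out (adjusted p = 0.058 to 0.12). Whether their changes exceeded that of ANAC013 was not tested.

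BSMT1, whose enzyme methylates salicylic acid and which ANAC019, ANAC055 and RD26 activate, rose by 2.47 (adjusted p = 9.0e-04, SE 0.22). The trehalase gene TRE1, a target of ATAF1, rose by 1.81 (adjusted p = 0.0041, SE 0.25). Targets of VNI2 differed, since COR15A rose by 1.15 (adjusted p = 0.023, SE 0.27), whereas COR15B overlapped between groups, with 9.85, 10.11 and 10.37 in control and 9.91, 10.94 and 10.09 in salt samples (adjusted p = 0.64). The difference between these 2 genes was not tested, and COR15A did not pass without control replicates 1, 2 or 3 or salt replicate 2 (adjusted p = 0.057 to 0.071). Of the defence genes that ANAC062 activates, PR1 rose by 1.31 (adjusted p = 0.0095, SE 0.23). PR5 read 11.96, 11.31 and 12.31 in control samples and 10.92, 11.27 and 11.06 with salt (log2 fold change -0.78, adjusted p = 0.060, SE 0.24), and passed as lower without control replicate 2, with -1.05 (adjusted p = 0.019). RBOHE, an oxidase gene bound by ANAC053, had 0.08 (95% interval -0.15 to 0.31). Its means of 4.51 in control and 4.59 in salt samples lay below the 30th percentile of signal (5.45). At so weak a signal a change could be missed.

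**Figure D5:**
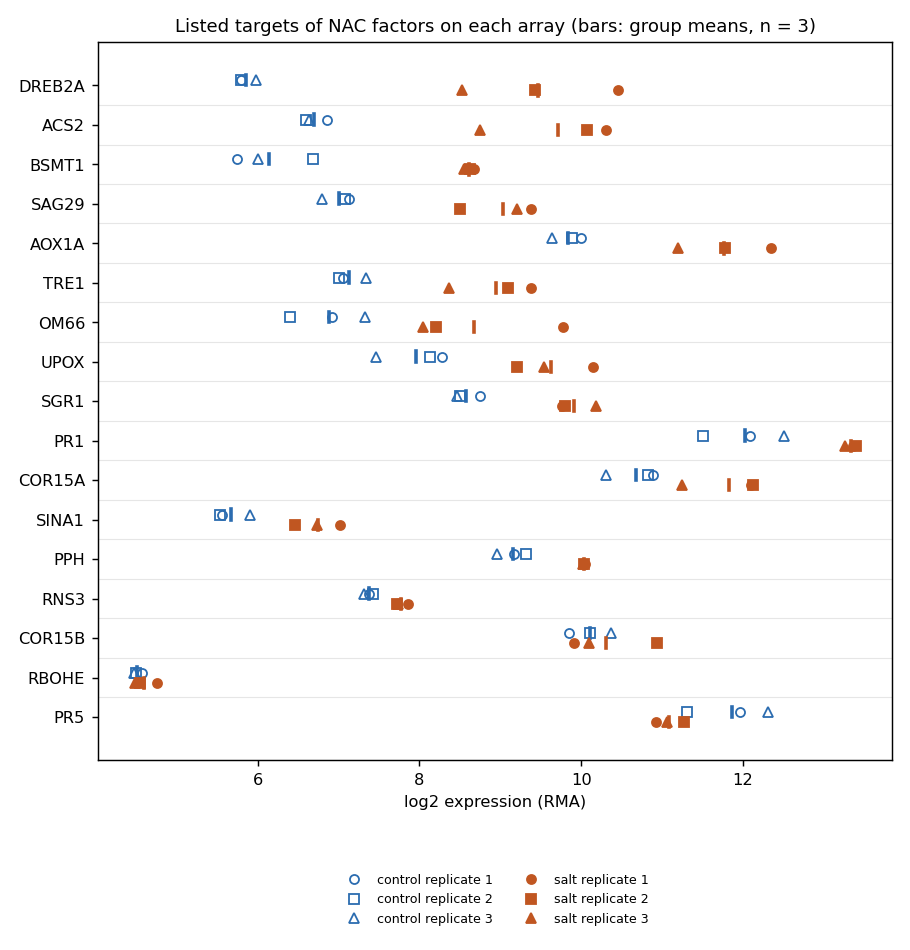
Log2 expression on each array of the 17 measured genes listed as known or proposed targets of NAC factors, ordered by the change with salt; blue open symbols are control and orange filled symbols salt samples, shapes are replicates and bars group means (n = 3). Salt and control samples are apart with salt higher in 14 genes, those that passed the test, and PR5 is apart with salt lower.

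Of 6 listed regulators of NAC genes, among them EIN2 and EIL1 of ethylene signalling, only EIN3 was measured. EIN3, which acts between ethylene perception and ORE1, read 9.75, 9.51 and 9.88 in control samples and 10.07, 9.82 and 9.81 with salt. These groups overlapped, and the log2 fold change was 0.19 (95% interval -0.11 to 0.48, adjusted p = 0.34 from limma).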

How the data were processed

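Shoots of control and salt-treated plants were hybridized to ATH1 arrays, 3 per group. The values deposited by the authors had been summarized by RMA in Bioconductor and are log2 expression values for 22810 probe sets, rounded to 2 decimals. The labels list GCRMA as well, and versions are not given in the sources used here. RMA compresses differences of weak probe sets, and probe intensities were not used here.

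The 64 control probe sets were left out. Of the rest, 13513 took the 1 gene the platform annotation gives, 503 with several genes stayed unnamed, and 921 were named through the study's H2O2 list, of which only a part was at hand. A further 7809 probe sets took no name from either source, and the shares over all genes leave them out. Symbols were updated with a reference table (TAIR10.1, used for names and gene order). The fit was an unpaired limma comparison of salt with control on the probe set with the highest mean per gene, with p-values adjusted over 14276 genes. Simulated data with known changes were used to test the fit.

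Members, role groups and lists were chosen with earlier results of these data known. All listed members and all measured listed genes are named. Same-numbered arrays did not deviate together (r = -0.124, 0.052 and -0.139 across genes, which are not independent replicates), and they were not treated as pairs in the main fit. Whether they come from the same repeat of the experiment is not given in the sources used here. Alternatives were quantile normalization, median centring, filters on mean signal (30th and 50th percentile), a replicate block, omission of each array, robust eBayes with a trend, array weights, all probe sets, and names from the annotation alone. Sequences of promoters and proteins were not used here. The qRT-PCR values of the study were not used. Precision is limited by the number of arrays. Tests ran in limma 3.58.1 under R 4.3.3 and scipy 1.17.1 under Python 3.11.15, with plots from matplotlib 3.10.9.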

Additional observations from a re-analysis of the deposited data

Results flagged for a closer look

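A control probe set that enters none of the comparisons, that for 25S ribosomal RNA, differed by 2.19 (log2, salt minus control), at 9.59 ± 0.60 (SD, n = 3) against 7.40 ± 0.38 (SD, n = 3) in control samples. Its part in the rise of the NAC genes was not tested. With 3 arrays per group, samples were not tested for being far from the others.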

How the results depend on the processing

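The count of NAC genes that rose stayed at 12 of 13 under the replicate block, either normalization, the 30th percentile filter, array weights, trend and robust estimation and all probe sets, and was 11 of 12 with the 50th percentile filter, which removes ANAC016. With 1 array left out it was 11 to 12, and the count at least 2-fold higher was 9 to 12. None fell under any of these alternatives. Of 181 values of single NAC genes under alternatives, 178 kept their side of the threshold and 3 did not, those of ANAC013 without a control replicate, and 0 changed direction. Among listed targets and EIN3 the count that rose was 14, 14 with the replicate block, 11 to 14 with 1 array left out, and 5 of 8 with the annotation names alone, which name fewer genes. The count that fell was 0, and 0 to 1 with 1 array left out. It was 1 with median centring and 1 with either signal filter, PR5 each time (adjusted p = 0.044 to 0.047). With annotation names alone no listed NAC gene could be measured. The replicate block changed no call of the 13 NAC genes, the 17 listed targets or EIN3. It was fitted for all 14276 genes, of which 2743 passed, and its calls for the other genes named are not given here. Over all genes, 3379 passed, 1337 without control replicate 1, 1337 without control replicate 2, 2111 without control replicate 3 and 5790 when all 22746 probe sets were tested. The precision is limited by 3 arrays per group.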
